A study of Mus musculus with 48 samples.

Results

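The mouse genes named Zfp and a number, for zinc finger protein, were followed in bone-forming cells given cytokines of the oncostatin M family. Every gene with such a symbol was taken, other than Zfp36, if at least 1 of its probes was detected (p under 0.01) on 3 or more of the 48 arrays, and each gene was read from the brightest of these probes. The arrays carried 554 probes for 303 such symbols, and 200 genes met the rule, of 10739 genes tested. Of the other symbols, 85 were detected on 0 arrays and 18 on 1 or 2 arrays. Whether a probe also picks up transcripts of related Zfp genes was not tested.

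As background, most of these proteins bind DNA through rows of C2H2 zinc fingers, and many of the mammalian ones carry a KRAB domain. The KRAB domain recruits the corepressor Trim28, which brings the histone methyltransferase Setdb1 to silence retroelements and imprinted regions. Others have no KRAB domain and act in cell fate, in chromatin or on RNA, so the shared name describes a fold and not a single function. Oncostatin M and leukemia inhibitory factor (LIF) bind receptors that contain gp130 paired with Osmr or Lifr and that signal mainly through STAT3.

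The cells were primary calvarial osteoblasts, grown from mouse skull bone and differentiated for 17 days. The KO groups came from mice lacking a functional oncostatin M receptor (OSMR null) and the WT groups from wild-type mice, both on C57BL/6 and from cousin-bred litters. Cells of each genotype received oncostatin M of mouse (mOSM) or human (hOSM) sequence or LIF (mLIF), each at 10 ng/ml, or no ligand (control), and RNA was taken after 1 h or 6 h. This gave 16 groups of 3 arrays. In mouse cells mOSM can use both Osmr and Lifr, while hOSM and LIF use Lifr alone, per the design text. The sample titles call the LIF mouse and the treatment protocol calls it human. The labels call the cells osteocytes. Of 6 osteocyte markers Pdpn and Phex were detected on all 48 arrays, Mepe on 12 and Dmp1 on 7. Sost and Fgf23 had no probe that met the detection rule, and such genes are called not measured from here on. Of 9 osteoblast markers Col1a1, Col1a2, Alpl, Sp7 and Pth1r were detected on all 48 arrays, Bglap on 43 and Ibsp on 33, and Runx2 and Spp1 were not measured. The labels do not say whether the 3 cultures per genotype derive from different animals, so the p-values may measure technical spread alone.

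Osmr itself followed the labels. It ran from 6.28 to 8.75 (median 7.23) on the 24 KO arrays, against 9.51 to 12.23 (median 10.54) on the 24 WT arrays, in normalized log2 signal. The KO minus WT difference was -3.32 ± 0.26 (SE, adjusted p = 4.85e-11), and the probe was above background on all arrays of both genotypes. Whether it lies in the deleted stretch was not tested. Each array detected between 14211 and 16747 probes. The third KO culture stood apart: over all genes its group-centred values had an SD of 0.514, against 0.246 to 0.289 in the other 5 cultures, and over the Zfp genes 0.242 against 0.111 to 0.152. Its summed adipocyte markers (6 of 6 measured) were 37.44 to 39.8 on the log2 scale, within a range of 37.44 to 53.54 over all KO arrays and 46.91 to 60.84 over all WT arrays. Results that use KO arrays are also given without it where a named call or a count changes.

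The Zfp genes were detected less often than the genes tested as a whole. Of the 200, 110 (55%) were detected on all 48 arrays, against 7188 (66.9%) of all genes tested, 50 on 24 to 47 arrays and 40 on 3 to 23. Zfp366, Zfp382, Zfp647 and Zfp811 entered with the minimum of 3 arrays. Their log2 signals ran from 4.51 to 6.04. Zfp72, Zfp169, Zfp182, Zfp473 and Zfp791 were detected on 2 arrays and stayed outside, with signals from 4.42 to 6.08.

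Promoters, the 250 bases before a transcription start, were available from RefSeq (GRCm38.p6) for 163 of the 200 genes, which had 196 of them. Motifs were searched on both strands, and each share is set against the 11166 promoters of the genes tested and then against all 32851 promoters of the genome, which include those of genes not detected here. The STAT motif TTCNNNGAA occurred in 14.8% of the 196 Zfp promoters, against 5.98% for the genes tested and 7.02% for the genome. The motif ACTACAATT, part of the site of the activator Zfp143, stood in 3.57%, against 0.582% and 0.365%, and the Zfp promoters with it were those of Zfp1, Zfp58, Zfp93, Zfp128, Zfp180, Zfp692 and Zfp933. The ETS motif CCGGAAGT occurred in 8.16%, against 5.53% and 2.88%, and the CRE TGACGTCA in 3.57%, against 2.46% and 1.55%. The AP-1 motif TGANTCA stood in 4.08%, against 4.58% and 6.75%. For the GC box GGGCGG the order depended on the set, with 49.5% of Zfp promoters, against 56.7% for the genes tested and 32.7% for the genome. The same held for the median GC content, 56.2% against 59.6% and 52.4%, and the median number of CpG pairs, 13 against 15 and 6. The 4 promoters below belong to genes that the results turn on and lie at chr17:17121133-17121382 (Zfp97, plus strand), chr13:67500523-67500772 (Zfp58, minus strand), chr1:136624651-136624900 (Zfp281, plus strand) and chr6:48445091-48445340 (Zfp467, minus strand). Each is printed 5′ to 3′ along its gene's strand, with capitals for a STAT motif, a GC box or the Zfp143 motif.
Zfp97: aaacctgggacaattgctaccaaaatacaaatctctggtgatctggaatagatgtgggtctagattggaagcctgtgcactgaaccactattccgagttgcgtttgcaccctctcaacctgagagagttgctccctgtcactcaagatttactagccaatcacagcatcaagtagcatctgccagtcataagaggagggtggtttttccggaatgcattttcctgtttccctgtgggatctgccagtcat
Zfp58: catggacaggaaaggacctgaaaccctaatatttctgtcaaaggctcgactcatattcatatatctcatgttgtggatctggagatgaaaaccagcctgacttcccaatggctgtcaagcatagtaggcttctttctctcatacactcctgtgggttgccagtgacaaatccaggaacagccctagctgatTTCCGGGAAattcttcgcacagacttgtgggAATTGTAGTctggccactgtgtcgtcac
Zfp281: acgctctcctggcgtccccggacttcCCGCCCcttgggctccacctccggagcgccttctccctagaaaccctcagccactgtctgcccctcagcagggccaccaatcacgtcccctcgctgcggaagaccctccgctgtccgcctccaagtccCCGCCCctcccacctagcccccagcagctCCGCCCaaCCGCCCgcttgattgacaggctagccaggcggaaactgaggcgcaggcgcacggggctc
Zfp467: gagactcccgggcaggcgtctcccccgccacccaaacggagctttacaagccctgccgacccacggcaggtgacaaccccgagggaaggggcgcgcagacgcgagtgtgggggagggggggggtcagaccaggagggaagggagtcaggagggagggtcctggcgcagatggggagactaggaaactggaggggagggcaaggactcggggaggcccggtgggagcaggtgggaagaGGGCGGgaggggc
The Zfp97 window held none of these 3 motifs. The Zfp58 window held 1 STAT motif (TTCCGGGAA) and 1 Zfp143 motif on the opposite strand. The Zfp281 window held 4 GC boxes, on the opposite strand, and the Zfp467 window 1. A match is a run of letters and shows no binding.

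In WT cells, 6 h of mOSM moved more Zfp genes down than up. Of the 200, 35 passed the test at an adjusted p under 0.05 (17.5%), 10 higher and 25 lower, while 27.5% of all genes tested passed. By direction the share of all genes was 11.9% higher and 15.6% lower, and the shares of Zfp genes that rose (5%) and fell (12.5%) were both below it. With the culture as a block the count was 59 (16 higher, 43 lower) and contained all 35, against 45.2% of all genes (17.7% higher, 27.5% lower). Without the third WT control array at 6 h it was 22 (8 higher, 14 lower), against 23% of all genes. All 35 moved in 1 direction in each of the 3 cultures, and for 34 the groups did not overlap. Over all 200, the groups did not overlap for 27 higher (13.5%) and 61 lower (30.5%), against 20.5% and 27.7% of all genes, and 39 (19.5%) were higher and 79 (39.5%) lower in each culture, against 28.9% and 40.5%. Among genes detected on all 48 arrays, 19 of 110 Zfp genes passed (17.3%, 4 higher and 15 lower), against 32.4% of all such genes. The median difference over the Zfp genes was -0.139, against -0.084 over all genes tested. Among the 35, fitted changes past 1 log2 unit numbered 3 higher and 8 lower. Of these, Zfp800 and Zfp185 had 1 group without an array above background, so their sizes are not measured. The 5th to 95th percentile of the differences ran from -0.853 to 0.635 over the Zfp genes, against -1.17 to 1.135 over all genes. The 1 beadchip that carried both groups held 2 mOSM arrays and 1 control, all part of the comparison that chose the 35. All 35 kept their sign there, which their selection largely fixed, so this is no separate check. With the beadchip as a term 31 passed, against 23.4% of all genes.

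**Figure D1:**
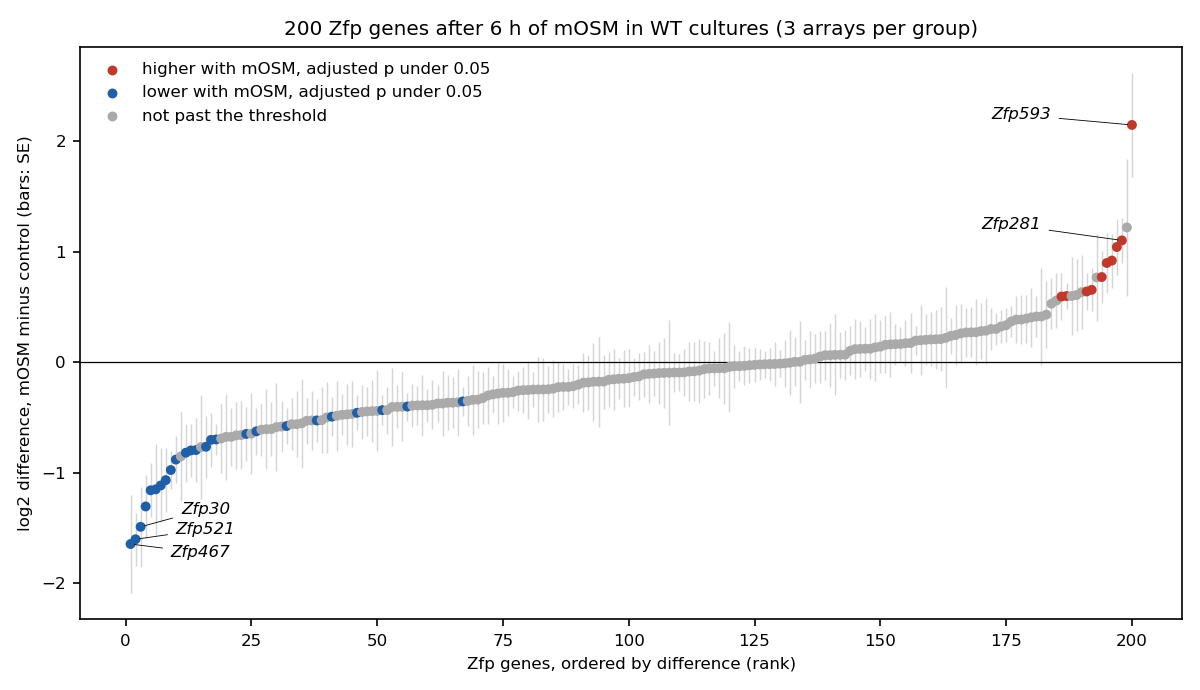
Log2 difference of each of the 200 Zfp genes between mOSM and control in WT cells at 6 h, ranked by size, with genes that passed the test coloured by direction. The 10 genes that rose end at Zfp593 with 2.15 and the 25 that fell end at Zfp467 with -1.65.

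Of the 11 genes listed for RNA and ribosomes, 8 were measured, 2 rose and 0 fell. Of all genes 11.9% rose (with the culture block 3, against 17.7%). The gene lists were chosen with earlier results of these data known, so counts over them are descriptive. Zfp593, whose yeast homologue Bud20 shuttles with precursors of the large ribosomal subunit, read 7.98, 7.77 and 8.27 on the WT mOSM arrays at 6 h, against 5.46, 6.17 and 5.94 on the WT controls. All 3 mOSM arrays stood above all 3 controls, of which 1 was not above background. The difference was 2.15 ± 0.47 (SE, adjusted p = 0.000619), or 4.43-fold. Zfp598, a ubiquitin ligase that acts at collided ribosomes, read 6.20, 6.45 and 6.46 with mOSM, against 5.52, 5.14 and 5.77 in control, where it was above background on 1 of 3 arrays. The groups did not overlap, and the difference was 0.90 ± 0.27 (adjusted p = 0.0125). That call was lost without the second control array (0.73, adjusted p = 0.0806) and with the beadchip as a term. The other 6, Zfp207, Zfp326, Zfp346, Zfp106, Zfp622 and Zfp318, lay between -0.27 and 0.34 and did not pass, although Zfp326 did with the culture block (adjusted p = 0.0475).

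Zfp281, a transcription factor of embryonic stem cells, read 9.38, 9.37 and 9.65 with mOSM, against 8.47, 8.28 and 8.34 in control. The gap between the groups was wide against the spread within them, at 1.10 ± 0.21 (adjusted p = 9.71e-05), and its other detected probe gave 1.73. Zfp131 read 10.39, 10.53 and 10.31, against 9.80, 9.78 and 9.86 in control (0.60 ± 0.12, adjusted p = 0.000198). Both are on the list for chromatin and growth, of which 10 of 13 genes were measured. From that list 2 also fell. Zfp532 read 8.43, 8.64 and 8.5 with mOSM, against 9.66, 9.48 and 9.35 in control (-0.98 ± 0.17, adjusted p = 3.67e-05). Zfp292, an activator of the growth hormone gene, read 8.45, 8.19 and 7.96, against 9.15, 9.11 and 8.98 in control (-0.88 ± 0.21, adjusted p = 0.00186). The 6 others, Zfp148, Zfp91, Zfp335, Zfp592, Zfp687 and Zfp703, lay between -0.39 and 0.41 and did not pass. With the culture block Zfp91 did (adjusted p = 0.042). The list thus moved in both directions.

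The other 6 genes that rose carry no listed role. Zfp52 read 7.32, 7.44 and 7.15 with mOSM, against 6.46, 6.08 and 6.62 in control (0.92 ± 0.24, adjusted p = 0.00423). Zfp655 read 10.27, 10.19 and 10.03, against 9.46, 9.41 and 9.70 in control (0.64 ± 0.17, adjusted p = 0.00391). In both genes every mOSM array lay above every control. Zfp800 read 5.72, 5.78 and 6.08 with mOSM and was above background on 2 of these arrays and on 0 of the 3 controls, so its change is given as at least 1.17-fold higher (adjusted p = 0.00184). That bound sets the mean of the bright group against the lowest signals still above background on the dim arrays. The last 3 depended on single arrays. Zfp202, whose human counterpart represses genes of lipid metabolism, differed by 0.77 ± 0.23 (adjusted p = 0.0117) and did not pass without the third control (0.70, adjusted p = 0.0507) or the third mOSM array (0.68, adjusted p = 0.0593). Zfp777 differed by 0.66 ± 0.20 (adjusted p = 0.0106) and did not pass without the third control (0.58, adjusted p = 0.0532), without the second mOSM array (0.59, adjusted p = 0.0539) or with arrays scaled to their medians. Zfp35 differed by 0.60 ± 0.22 (adjusted p = 0.0371) and did not pass without control 1 or 2 or mOSM array 1 or 3 (0.47 to 0.57, adjusted p 0.0958 to 0.172).

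Of the 7 genes listed for mesenchymal fate, 5 were measured, 2 fell and 0 rose, where 15.6% of all genes fell, and 4 fell with the culture block, against 27.5%. The list median was -0.56, against -0.08 over all genes. As the list was chosen with earlier results of these data known, its counts and median do not test a shift of fate genes. Zfp467, which in mouse progenitors favours the fat over the bone lineage, read 5.93, 5.86 and 6.01 with mOSM, against 7.43, 7.69 and 7.62 in control. The 3 arrays of each group lay close together and the groups stood well apart, at -1.65 ± 0.44 (adjusted p = 0.00478). Zfp521, a fate regulator of mesenchymal and blood cells that restrains Runx2, read 9.08, 9.46 and 9.36 with mOSM, against 10.88, 11.10 and 10.72 in control. Its difference was -1.60 ± 0.24 (adjusted p = 3.5e-06), and a second probe, detected on 22 arrays, gave -1.18. The remaining 3 were below control without passing. Zfp219 differed by -0.48 ± 0.18 (adjusted p = 0.0522, with the culture block 0.00272). Zfp516, a factor of brown fat, differed by -0.56 ± 0.24 (adjusted p = 0.0759, with the block 0.04). Zfp423, a determinant of fat precursors, differed by -0.32 (adjusted p = 0.337, with the block 0.199).

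Cell markers were read on the same arrays. The 6 adipocyte markers, all measured, summed to 46.91 to 52.81 on the log2 scale with mOSM, against 52.37 to 58.66 in control, and 1 of the 6 fell (4 with the culture block). Of 9 osteoblast markers 7 were measured, without Runx2 and Spp1, and they summed to 59.3 to 73.94, against 64.68 to 80.4 in control, with 1 lower (5 with the block). Of the adipocyte markers Lpl and Pparg were detected on all 48 arrays, Cebpa on 46, Adipoq on 40, Plin1 on 14 and Fabp4 on 6. Of the other lists, 1 of 4 osteocyte markers rose, 1 of 4 chondrocyte markers fell (2 with the block), and 0 of 4 macrophage, 0 of 2 endothelial and 0 of 2 muscle markers passed. These counts stand against 11.9% of all genes higher and 15.6% lower (17.7% and 27.5% with the block). In bulk cultures, fewer cells of a type and less RNA per cell cannot be told apart, and the part of either in the fall of Zfp467 and Zfp521 was not tested.

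Most of the other genes that fell lie outside the role lists. Zfp30, which in mouse airways has been tied to the chemokine Cxcl1 and to neutrophil recruitment, read 7.03, 6.24 and 6.89 with mOSM, against 8.28, 8.03 and 8.32 in control (-1.49 ± 0.36, adjusted p = 0.00176). Its other probe, detected on 5 arrays, gave -0.15. Zfp101 read 5.76, 5.72 and 5.82 with mOSM, above background on 2 of 3 arrays, against 7.08, 7.25 and 6.86 in control (-1.31 ± 0.29, adjusted p = 0.000667). The groups did not overlap in either gene. Zfp41 read 7.47, 7.20 and 7.15, against 8.47, 8.37 and 8.46 in control (-1.16 ± 0.24, adjusted p = 0.000415), and its second probe gave -1.59. Zfp551 read 6.61, 6.49 and 6.31, against 7.50, 7.54 and 7.56 in control (-1.07 ± 0.29, adjusted p = 0.00512). These 4, like Zfp467, Zfp521, Zfp532 and Zfp292 and the rises of Zfp593, Zfp281, Zfp131, Zfp52, Zfp655 and Zfp800, passed with each of the 6 arrays left out in turn.

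A set of falls was less secure. Zfp185, a LIM-domain protein of the actin cytoskeleton, read 4.58, 5.37 and 5.53 with mOSM, on 0 of 3 arrays above background, against 6.39, 6.30 and 6.24 in control, so it was at least 1.54-fold lower (adjusted p = 0.0327). It did not pass without any 1 of the 3 controls or without the first mOSM array (adjusted p 0.0624 to 0.179). Zfp248 was at least 1.5-fold lower (adjusted p = 0.0173) and did not pass without the first control (adjusted p = 0.0655) or the first mOSM array (adjusted p = 0.0806). Both genes had all 3 controls above background. Zfp286 was at least 1.26-fold lower (adjusted p = 0.0101) and did not pass without the second mOSM array (adjusted p = 0.0761). Zfp763 read 7.41, 7.22 and 7.72, against 8.71, 8.16 and 8.81 in control. Its difference of -1.11 ± 0.33 (adjusted p = 0.0111) did not pass without the third control (-0.99) or the second mOSM array (-1.0), each with an adjusted p of 0.0543. The remaining 13 genes that fell are Zfp37, Zfp128, Zfp184, Zfp362, Zfp367, Zfp369, Zfp395, Zfp418, Zfp512, Zfp637, Zfp644, Zfp871 and Zfp943. Zfp367 was at least 1.34-fold lower, above background on 0 mOSM arrays and all 3 controls. Zfp128, Zfp184, Zfp395 and Zfp418 were above background on 0 mOSM arrays and at most 1 control, so no fold is given. The other 8 fell by between 0.35 (Zfp644) and 0.70 (Zfp362), and Zfp369 was the 1 passing gene whose groups overlapped.

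Of the 7 genes listed for imprint and retroelement control, 2 were measured and neither passed in any ligand comparison. Zfp445, which helps keep imprinted methylation, lay between -0.37 and 0.48 and Zfp809, which represses retroviral elements in mouse, between -0.27 and 0.65. Promoters were available for 8 of the 10 genes that rose and 17 of the 25 that fell. A GC box stood in 9 of 10 promoters of the first set (90%) and 12 of 23 of the second (52.2%). The STAT motif stood in 0 and 3 (13%). These sets were chosen by the differences above and are too small to set against the genome.

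**Figure D2:**
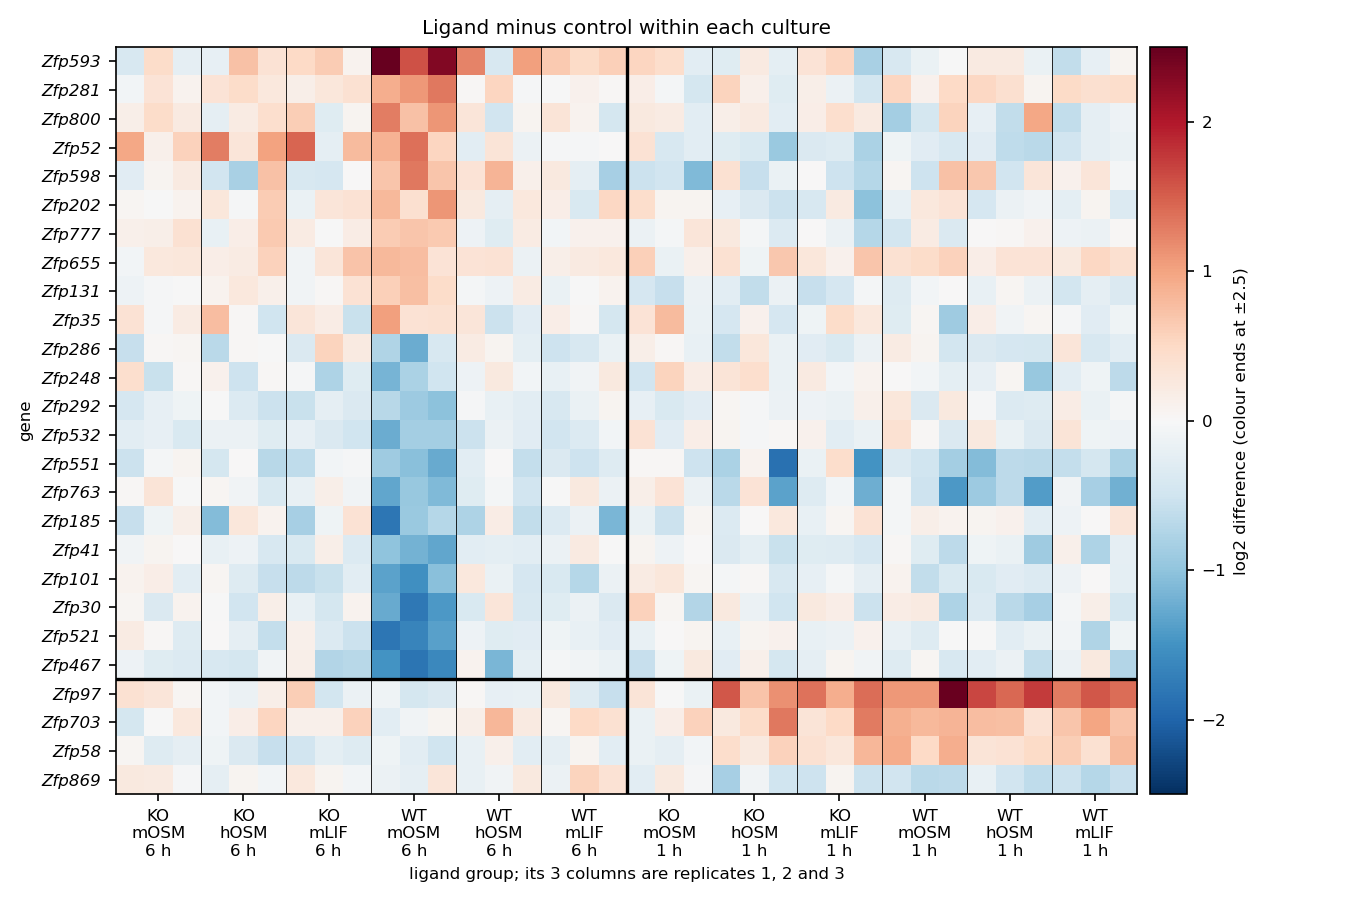
Log2 difference between each ligand and its control for 26 Zfp genes (rows) in KO and WT cells, with 6 h to the left of 1 h, red higher and blue lower than control. The fitted group differences with mOSM in WT cells at 6 h run from -1.65 (Zfp467) to 2.15 (Zfp593). At 1 h the fitted difference of Zfp97 passed the test in every ligand comparison other than mOSM in KO cells.

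The ligands confined to Lifr moved none of these genes past the threshold in WT cells at 6 h. With hOSM 0 of 200 passed by limma (1 at an unadjusted p under 0.05), against 0.661% of all genes, and 0 with the culture block, against 5.63%. The differences ran from -0.49 to 0.62. With mLIF 0 passed (4 unadjusted), against 0.494% of all genes, from -0.55 to 0.78. With the culture block Zfp580 passed under mLIF (0.78, adjusted p = 0.0256), against 5.45% of all genes. The 35 genes that passed with mOSM lay between -0.43 and 0.62 with hOSM and between -0.55 and 0.58 with mLIF. Zfp593 had the highest hOSM value, at 0.62. These comparisons share their controls with the mOSM comparison.

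The direct contrast of mOSM against the mean of both Lifr ligands uses no control array. In WT cells at 6 h, 35 Zfp genes passed, 14 higher and 21 lower, against 21.2% of all genes (8.86% higher, 12.3% lower). With the culture block the count was 57 (19 higher, 38 lower), against 38% of all genes (14.5% higher, 23.6% lower), and without the second mOSM array it was 23 (8 higher, 15 lower), against 15.3%. Zfp593 was higher with mOSM by 1.55 ± 0.41, Zfp281 by 1.00 ± 0.18, Zfp52 by 0.95, Zfp598 by 0.82 and Zfp35 by 0.72. Zfp800 also passed, but it was above background on 0 of the 6 arrays of the other ligands, so no size is given. Zfp592 (0.63) passed here and not against control. Zfp521 was lower by -1.38 ± 0.21 (adjusted p = 5.92e-06), Zfp467 by -1.38 ± 0.38 (adjusted p = 0.00801) and Zfp30 by -1.27 ± 0.31 (adjusted p = 0.00267). Zfp101 and Zfp41 both stood at -1.04 and Zfp763 at -0.99. This contrast shares its mOSM arrays with the comparison against control. Zfp598 did not pass without mOSM array 2 or 3 (adjusted p 0.0542 and 0.0556), nor Zfp763 without mOSM array 2 (-0.88, adjusted p = 0.0775).

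Cells without Osmr showed 0 Zfp genes past the threshold with mOSM at 6 h by limma (7 at an unadjusted p under 0.05), where 0% of all genes passed, and 0 with the culture block, against 0.0466% of all genes. Differences ran from -0.53 to 0.68. Zfp593 read 5.58, 5.81 and 6.72 on the KO mOSM arrays, against 5.97, 5.34 and 6.94 on the KO controls (-0.05). Zfp281 read 8.14, 8.32 and 8.80, against 8.20, 7.97 and 8.71 (0.12). Zfp521 read 10.55, 10.72 and 11.10, against 10.34, 10.68 and 11.42 (-0.02). In all 3 genes the KO groups overlapped, and the third culture was high in both. Zfp467 read 8.03, 7.94 and 6.69, against 8.16, 8.24 and 7.04 (-0.26), with the third culture low in both groups.

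With hOSM 0 of 200 passed in KO cells at 6 h (6 unadjusted), against 0.829% of all genes. With mLIF 0 passed (4 unadjusted), against 0.931% of all genes. The culture block called Zfp52 (0.86, adjusted p = 0.0159) and Zfp963 (-0.56) with hOSM, against 6.99% of all genes. It called Zfp608 (-0.43) with mLIF, against 7.89%. Zfp52, which rose in WT cells with mOSM, differed by 0.67 in KO cells with mLIF without passing.

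**Figure D3:**
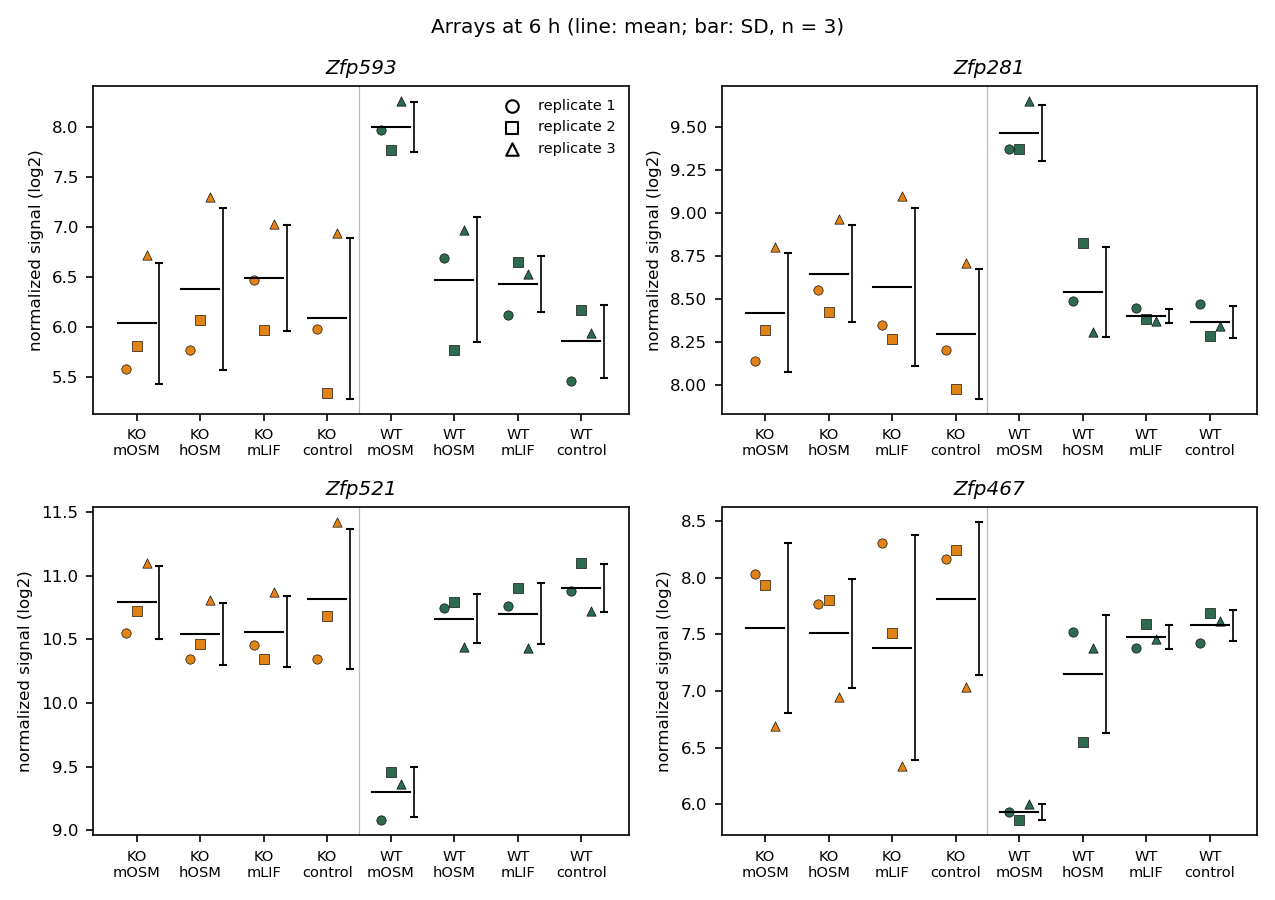
Log2 signal on each array at 6 h for Zfp genes that moved with mOSM in WT cells, with KO left of WT and the ligands left of control in each panel. The WT mOSM arrays of Zfp593 lie at 7.77 to 8.27 and those of Zfp521 at 9.08 to 9.46, apart from the other WT groups, and the KO mOSM arrays overlap their controls.

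The interaction tests whether the mOSM effect at 6 h differed between genotypes, as the KO effect minus the WT effect. It passed for 9 Zfp genes, 5 with positive and 4 with negative values, against 9.71% of all genes (5.38% positive, 4.33% negative). With the culture block 23 passed (17 positive, 6 negative), all 9 among them, against 26.3% of all genes (16.3% positive, 9.95% negative). Scaling the arrays to their medians left 3 positive and 1 negative, with no share of all genes given for that setting. Without the third KO culture 14 passed (10 positive, 4 negative), against 13.8% of all genes, and the 9 were among them.

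Negative values marked rises seen in WT cells. Zfp593 gave -2.20 ± 0.67 (adjusted p = 0.0292), Zfp281 -0.98 ± 0.29 (adjusted p = 0.0271) and Zfp131 -0.65 ± 0.17 (adjusted p = 0.00978). Positive values marked falls. Zfp521 gave 1.58 ± 0.34 (adjusted p = 0.00192), Zfp101 1.30 ± 0.41 (adjusted p = 0.0352), Zfp41 1.16 ± 0.35 (adjusted p = 0.0272), Zfp362 0.68 ± 0.20 (adjusted p = 0.0253) and Zfp644 0.57 ± 0.18 (adjusted p = 0.0395). Zfp467, with 1.39, did not pass (SE 0.63, adjusted p = 0.181) and did with the culture block (SE 0.30, adjusted p = 0.000695). Zfp30, with 1.42, likewise went to an adjusted p of 0.0174 with the block, against 0.0733 without it.

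Zfp521, Zfp131 and Zfp213 passed with each of the 12 arrays left out in turn. With arrays scaled to their medians Zfp131 and Zfp213 did not pass (adjusted p = 0.082 and 0.073). Zfp593 did not pass without KO control 3, KO mOSM 1 or 2, WT control 1 or WT mOSM 3 (-1.77 to -2.09, adjusted p 0.0653 to 0.101). Zfp281 did not without KO control 3, KO mOSM 1 or 2, WT control 2 or 3 or WT mOSM 3, nor Zfp41 without KO control 3, KO mOSM 2, WT control 1 or 3 or WT mOSM 2 or 3. Zfp362 did not without KO control 1 or 2, KO mOSM 3, WT control 1 or 2 or WT mOSM 2. Zfp101 passed in 3 of the 12 runs (without KO control 2, KO mOSM 3 or WT control 3) and Zfp644 in 4 (without KO control 2, KO mOSM 3, WT control 2 or WT mOSM 1). The count over all Zfp genes was 4 without WT control 1, KO mOSM 2 or WT mOSM 3, against 7.48%, 8.23% and 7.49% of all genes. It was 5 without WT mOSM 2, against 7.42%. Median scaling and fits of the compared groups alone each lost Zfp281, Zfp362 and Zfp644. The beadchip as a term lost Zfp593, Zfp101, Zfp41, Zfp362 and Zfp644. Zfp101 also did not pass without background correction or without a filter on dim probes. Zfp521 passed under every alternative.

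Zfp213 was the exception to this arrangement. At 6 h it read 7.41, 7.44 and 7.54 on the KO mOSM arrays, against 8.01, 7.96 and 8.02 on the KO controls. In WT cells it read 8.06, 8.41 and 8.28 with mOSM, against 7.80, 7.94 and 8.04 in control. The KO mOSM arrays lay below their controls and the WT mOSM arrays above theirs, without overlap in either genotype. Neither difference passed on its own, at -0.53 in KO cells and 0.32 in WT cells, while the interaction was -0.85 ± 0.22 (adjusted p = 0.00893). With arrays scaled to their medians the interaction did not pass (adjusted p = 0.073).

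After 1 h, Zfp97 was the 1 Zfp gene that passed with each of the 3 ligands in WT cells. It read 9.0, 9.26 and 10.32 with mOSM, 9.59, 9.63 and 9.60 with hOSM and 9.22, 9.74 and 9.25 with mLIF in WT cells, against 7.92, 8.19 and 7.85 in control. Every treated array stood above every control, and the hOSM arrays lay close together. The differences were 1.54 ± 0.26 with mOSM (adjusted p = 0.000409), 1.62 with hOSM (adjusted p = 0.000355) and 1.42 with mLIF (adjusted p = 0.00259). All 3 share the same controls. With the spread taken from the 2 compared groups alone, the mOSM difference did not pass (adjusted p = 0.274). Within the 2 beadchips that carried both hOSM and control arrays the hOSM difference was 1.54 and 1.78.

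In KO cells Zfp97 read 8.16, 8.20 and 7.36 with mOSM, 9.38, 8.90 and 8.66 with hOSM and 9.19, 9.11 and 8.92 with mLIF, against 7.83, 8.20 and 7.53 in control. The mOSM arrays covered the range of the controls (0.06), while the hOSM and mLIF arrays lay above it. The hOSM difference was 1.13 (adjusted p = 0.0306, with the culture block 0.00139) and the mLIF difference 1.22 (adjusted p = 0.0129, with the block 0.000516). The hOSM call was lost without KO control 1 or 3 or hOSM array 1 or 2 (0.93 to 1.17, adjusted p 0.0668 to 0.336). The mLIF call was lost without KO control 1 or 3 or mLIF array 1 or 2 (1.06 to 1.21, adjusted p 0.0548 to 0.174). Both were lost without the third KO culture (1.13 each, adjusted p = 0.0925 and 0.0988) and in fits of the compared groups alone, and the hOSM call also with the beadchip as a term (0.80). The interaction for mOSM at 1 h did not pass (-1.49, SE 0.37, adjusted p = 0.21) and did with the culture block (SE 0.30, adjusted p = 0.0109).

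Over the family, 4 Zfp genes passed with mOSM at 1 h in WT cells, 3 higher and 1 lower, against 0.745% of all genes (0.661% higher, 0.0838% lower). With hOSM 1 passed, against 0.466% (2 with the culture block, against 1.45%), and with mLIF 2, against 0.624%. In KO cells 0 passed with mOSM by limma (6 unadjusted, 0 with the culture block), against 0.00931% of all genes, which is the 1 gene Socs3 (2.52). There 1 passed with hOSM, against 0.4%, and 1 with mLIF, against 0.428%, each being Zfp97. For mOSM against the other ligands in WT cells at 1 h 0 Zfp genes passed by limma (0 at an unadjusted p under 0.05), against 0% of all genes, and 0 with the block, against 0.0466%.

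**Figure D4:**
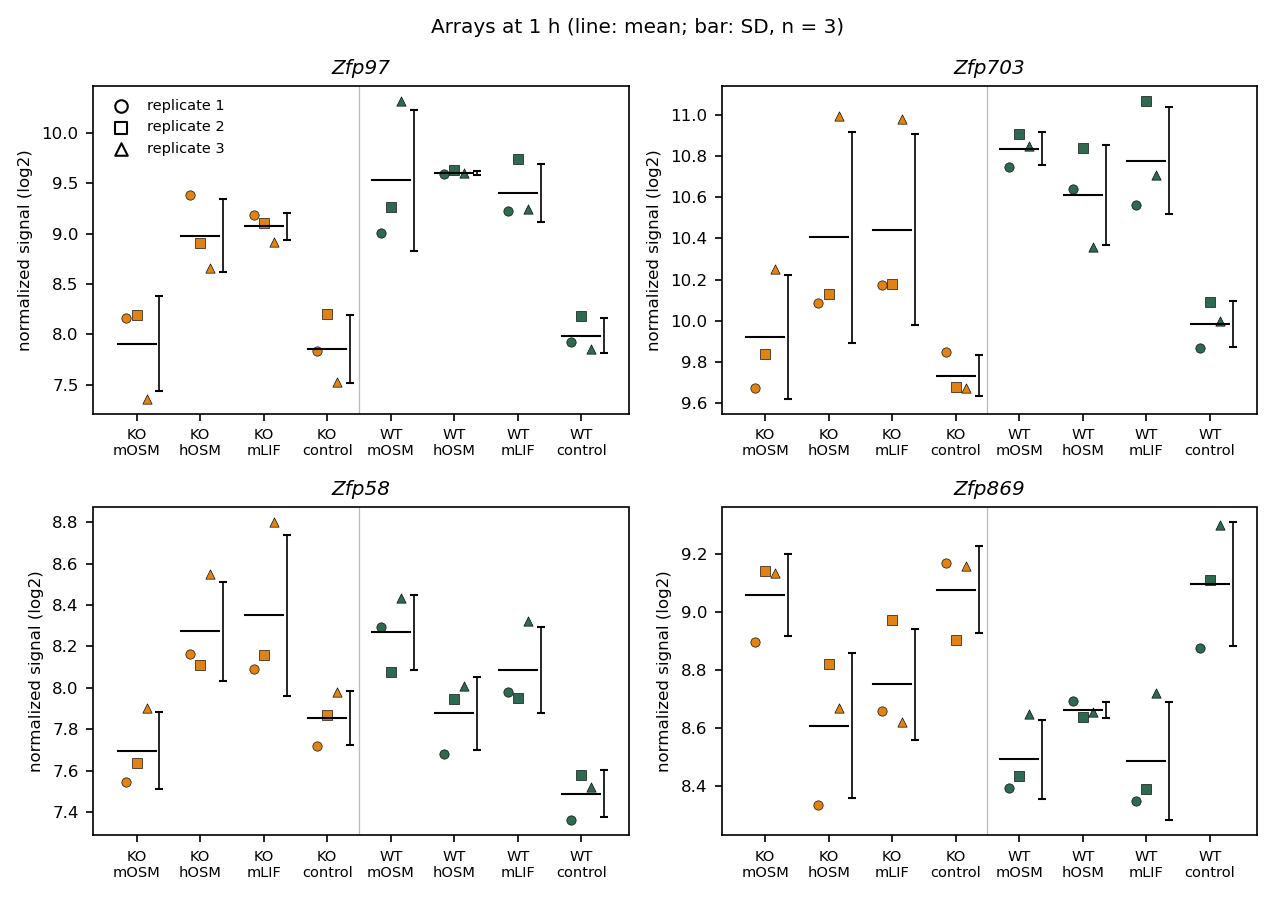
Log2 signal on each array at 1 h for the Zfp genes that passed in WT cells, with KO left of WT and the ligands left of control in each panel. Zfp97 lies at 9.0 to 10.32 on the WT mOSM arrays and at 7.36 to 8.20 on the KO mOSM arrays.

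The other early genes moved less. Zfp703, a transcriptional repressor of the NET family, read 10.75, 10.91 and 10.85 with mOSM in WT cells, against 9.87, 10.09 and 10.00 in control (0.85 ± 0.21, adjusted p = 0.0385), and its second probe gave 1.06. The groups stood apart, although the call was lost with any 1 of the 6 arrays left out (0.79 to 0.90, adjusted p 0.0941 to 0.239). With the culture block Zfp703 also passed with hOSM (0.63, adjusted p = 0.037) and mLIF (0.79, adjusted p = 0.0033) in WT cells and with hOSM (0.67, adjusted p = 0.0243) and mLIF (0.71, adjusted p = 0.0151) in KO cells. Zfp58, whose promoter is printed above, read 8.29, 8.08 and 8.44 with mOSM, against 7.36, 7.58 and 7.52 in control (0.78 ± 0.16, adjusted p = 0.00743), while its second probe gave 0.40. It did not pass without control 1 (0.72, adjusted p = 0.0768) or mOSM array 3 (0.70, adjusted p = 0.118). The mOSM interaction of Zfp58 at 1 h was -0.94 (SE 0.23, adjusted p = 0.21), and the culture block brought it past the threshold (SE 0.18, adjusted p = 0.00581), with Zfp97, against 0.372% of all genes. Without the third KO culture Zfp58 passed (-0.98, adjusted p = 0.0411), against 0.279% of all genes. Without the block 0 Zfp genes passed that interaction by limma (10 unadjusted), against 0.0745% of all genes.

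Zfp869 was the 1 gene that fell. It read 8.39, 8.44 and 8.65 with mOSM and 8.35, 8.39 and 8.72 with mLIF in WT cells, against 8.88, 9.11 and 9.30 in control. The differences were -0.60 ± 0.15 (adjusted p = 0.0465) and -0.61 (adjusted p = 0.0494). Each treated array lay below each control, by a narrow margin. With mOSM it did not pass without control 2 or 3 or any 1 of the mOSM arrays, and with mLIF not without control 2 or 3 or mLIF array 1 or 2. The block added Zfp866 (-0.70) with mOSM, and Zfp157 (-0.98), Zfp184 (-0.75) and Zfp58 (0.60, adjusted p = 0.00467) with mLIF, against 1.64% and 1.69% of all genes. In KO cells it added Zfp157 with hOSM (-0.99) and Zfp58 with mLIF (0.50, adjusted p = 0.0378), against 1.14% and 1.15%.

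Below the threshold the family as a whole was low at 1 h in WT cells. The median over the 200 genes in WT cells was -0.12 with mOSM, -0.15 with hOSM and -0.10 with mLIF, against -0.005, -0.025 and 0.006 over all genes. Differences were positive for 32%, 28% and 32% of Zfp genes, against 48.8%, 44.3% and 51.1% of all genes. Lower in each of the 3 cultures were 26.5% with mOSM, 37% with hOSM and 26% with mLIF, against 13.6%, 18.7% and 15.6% of all genes. In KO cells these shares were 12% with mOSM, 23% with hOSM and 19.5% with mLIF, against 10.5%, 17.9% and 14.2% of all genes. The KO medians were -0.014, -0.093 and -0.073, against 0.004, -0.025 and -0.017 over all genes, so with mOSM the KO shift was small. The 3 ligand comparisons of a genotype share their controls, so a common offset of the control arrays enters all of them. In WT cells at 1 h no beadchip carried controls together with mOSM or mLIF arrays, so those shifts were read between beadchips. Within the beadchips that carried WT hOSM and control arrays, the Zfp median was -0.213 and -0.046, against -0.013 and -0.031 over all genes. For KO mLIF it was -0.174 on 1 beadchip and 0.172 on another, against -0.026 and 0.025. For KO mOSM 1 beadchip gave -0.083, against -0.023. The low family at 1 h was thus not seen within every beadchip.

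The control groups themselves differed between the times. In WT controls at 6 h against 1 h the Zfp median was 0.194, against 0.029 over all genes, and 73% were positive, against 55.4%. In KO controls the median was 0.149, against 0.022, and 70.5% were positive, against 54.1%. Higher at 6 h in each of the 3 cultures were 87 Zfp genes (43.5%) in WT and 90 (45%) in KO cells, against 22.2% and 21.6% of all genes, and lower in each were 12 (6%) and 19 (9.5%), against 15.3% and 16.9%. With arrays scaled to their medians the all-gene median moved by -0.124 in the KO comparison, and the Zfp median minus the all-gene median was 0.132, against 0.127 before. In WT cells it was 0.173, against 0.165. On the 1 beadchip that carried KO controls of both times, 1 array of each gave a Zfp median of 0.231, against 0.022 over all genes. No beadchip carried WT controls of both times, so the WT shift was read between beadchips.

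**Figure D5:**
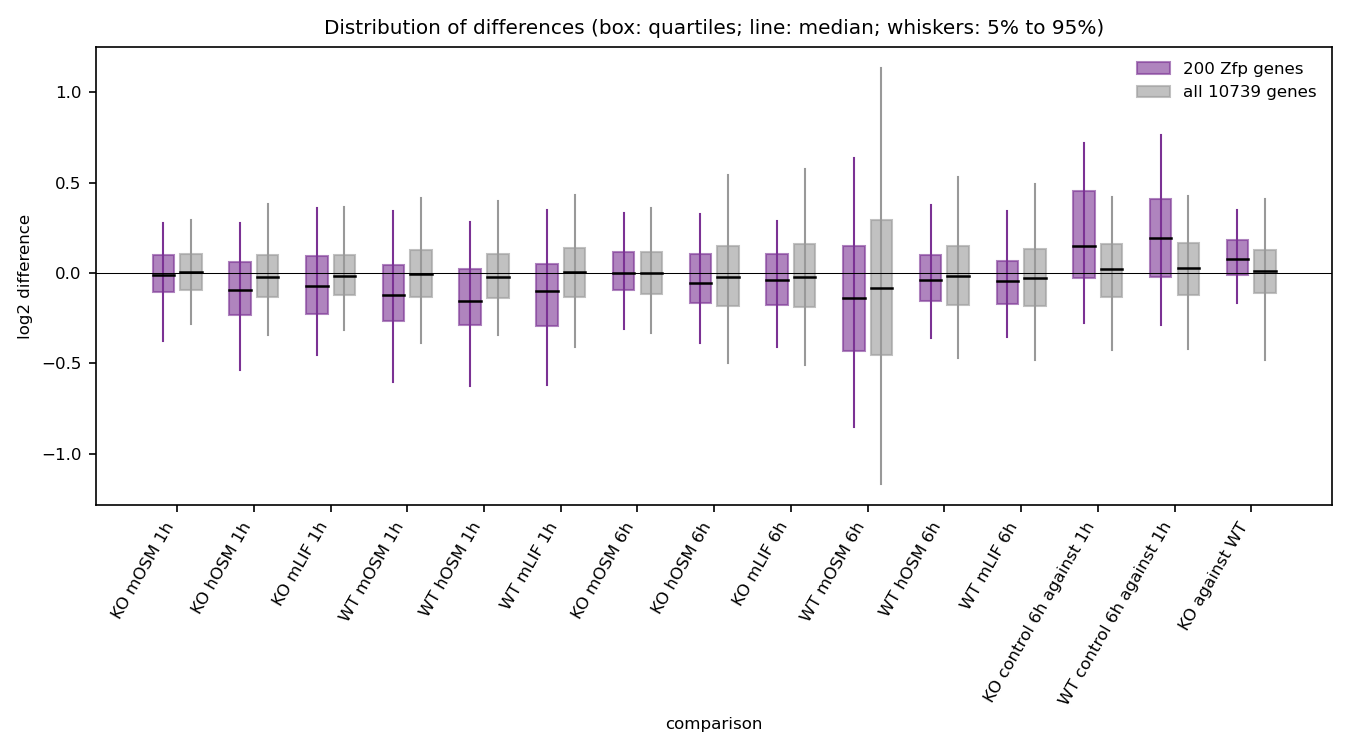
Log2 differences of the 200 Zfp genes (purple) and all 10739 genes tested (grey) in 15 comparisons, as boxes of the quartiles with the median and whiskers from the 5th to the 95th percentile. The Zfp boxes sit above the grey ones for 6 h against 1 h in controls (medians 0.194 and 0.149) and below them for the WT ligands at 1 h.

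Few single genes passed in the controls. In WT controls 3 did, against 0.428% of all genes, and all were higher at 6 h, against 0.0931%. Zfp748 read 7.22, 7.20 and 7.18 at 6 h, against 6.11, 5.95 and 6.30 at 1 h (1.08 ± 0.20, adjusted p = 0.0027). Its call held with any 1 array left out but not with the beadchip as a term (adjusted p = 0.0687). Zfp58 read 8.19, 8.09 and 8.46 at 6 h, against 7.36, 7.58 and 7.52 at 1 h (0.76 ± 0.16, adjusted p = 0.0172). Its 6 h controls thus overlapped the levels read with mOSM at 1 h. The second probe of Zfp58 gave 0.31 between the control times. The Zfp58 call was lost with median scaling, the mean of all probes, the beadchip as a term and fits of the compared groups alone. Zfp213 read 7.80, 7.94 and 8.04, against 7.10, 7.27 and 7.29 (0.71 ± 0.15, adjusted p = 0.0172). The Zfp213 call was lost with median scaling, the beadchip as a term and fits of the compared groups alone. The call of Zfp58 was lost without array 1 or 3 of either time, and that of Zfp213 without any 1 h control or without 6 h control 2 or 3 (adjusted p up to 0.222 and 0.174). The culture block raised the count to 8, against 1.56% of all genes, with Zfp28 (0.55), Zfp39 (1.10), Zfp87 (0.68), Zfp551 (0.90) and Zfp963 (0.71).

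In KO controls 2 passed, against 0.279% of all genes, both higher at 6 h, against 0.0279%. Zfp747 read 7.98, 7.82 and 8.06 at 6 h, against 6.85, 6.79 and 7.19 at 1 h (1.01 ± 0.22, adjusted p = 0.0249), and differed by 0.81 in WT controls (adjusted p = 0.127). Zfp213 read 8.01, 7.96 and 8.02, against 7.58, 7.29 and 7.11 (0.67 ± 0.15, adjusted p = 0.0417). The groups were separate in both genes. Both calls were lost with median scaling, the beadchip as a term and fits of the compared groups alone. Each call held in 1 of 6 runs with an array left out, that without 1 h control 3 for Zfp747 and that without 1 h control 1 for Zfp213. Without the third KO culture Zfp747 passed (1.08, adjusted p = 0.00468) and Zfp213 did not (0.55, adjusted p = 0.28), against 0.363% of all genes. The block added Zfp58 (0.67), Zfp82 (1.00), Zfp94 (1.42), Zfp583 (0.72) and Zfp691 (1.12), against 1.39% of all genes.

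The mOSM effect at 6 h minus that at 1 h in WT cells passed for 15 Zfp genes, 7 positive and 8 negative, against 13% of all genes (5.56% positive, 7.43% negative). With the culture block 30 passed (11 positive, 19 negative), against 30.4% of all genes (11.5% positive, 18.9% negative). The largest positive value was that of Zfp593 (2.34) and the largest negative that of Zfp97 (-1.84), which marks the late gene and the early gene of the set. Zfp521 followed with -1.43. The count was 8 without the first mOSM array at 1 h (against 9.84% of all genes) and 21 without the third (against 13.7%). It was 9 without 6 h control 1 (against 9.81%) or 1 h control 3 (against 10.4%). Scaling to medians gave 3 positive and 7 negative, with no share of all genes given for that setting. Of the 12 genes named by the rule, Zfp97, Zfp521, Zfp58 and Zfp532 passed with each of 12 arrays left out. Zfp593 did not pass without 1 h mOSM array 1 (2.13, adjusted p = 0.0501), Zfp52 not without 6 h control 2 (1.03, adjusted p = 0.0619) and Zfp800 not without 6 h control 1 or 1 h mOSM array 1. Zfp263 was lost in 9 of 12 runs, passing without 6 h control 2 or 1 h mOSM array 2 or 3. Zfp777 was lost in 8, passing without 1 h control 3, 6 h control 2, 1 h mOSM array 2 or 6 h mOSM array 3. Zfp292 was lost in 8, passing without 1 h control 2, 6 h control 3, 1 h mOSM array 3 or 6 h mOSM array 1. Zfp35 was lost in 7, passing without 1 h control 1 or 2, 6 h control 3, 1 h mOSM array 2 or 6 h mOSM array 2. Zfp703 was lost in 7, passing without 1 h control 2, 6 h control 3, 1 h mOSM array 1 or 3 or 6 h mOSM array 3.

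Between genotypes, over all groups, 0 Zfp genes passed by limma (11 unadjusted), against 1.86% of all genes. The median KO minus WT difference was 0.077, against 0.008 over all genes, and 72% of Zfp genes were positive, against 52.1%. The 3 cultures are the replicates of a genotype here, and the fit kept the culture as a random effect with 1 correlation for all genes. With the replicate number, shared by both genotypes, as an added block it called Zfp219 (0.41, adjusted p = 0.0165) and Zfp37 (0.36, adjusted p = 0.0199), against 4.8% of all genes. Without the third KO culture 15 Zfp genes passed (13 higher, 2 lower in KO), a share close to the 7.25% of all genes. The split of all genes by direction is not given for that run. In the same arrays 4 of 7 macrophage and osteoclast markers were measured, without Ptprc, Cd68 and Acp5. They summed to 32.04 to 38.19 in KO and 33.24 to 48.08 in WT arrays, with 2 lower in KO (3 with the block). Also lower in KO were 1 of 6 adipocyte markers (3 with the block) and 1 of 4 osteocyte markers. Of the osteoblast, endothelial, chondrocyte and muscle markers 0 passed, and 1 chondrocyte marker was lower with the block. Over all genes 114 of 10739 were lower in KO (301 with the block). The part of cell composition in the shift was not tested.

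The partners of KRAB proteins were also read. Of 20 genes listed for that machinery 16 were measured, and with mOSM in WT cells at 6 h 3 rose and 1 fell, where 11.9% and 15.6% of all genes did (5 and 3 with the culture block, against 17.7% and 27.5%). The maintenance methyltransferase Dnmt1 was at 9.34 ± 0.13 with mOSM and 8.35 ± 0.23 in control (SD, n = 3 each), a difference of 0.99 ± 0.14 (SE, limma adjusted p = 1.7e-06). Mta2 (0.62) and Chd4 (-0.45), both of the NuRD complex, moved in opposite directions. Setdb1 rose by 0.42 and the central corepressor Trim28 differed by 0.15 (adjusted p = 0.562). Zfp36, left out by the rule because its fingers are of the CCCH kind and bind AU-rich mRNA, rose with mOSM in WT cells by 1.71 at 6 h and 2.53 at 1 h, and its relative Zfp36l1 rose by 0.88 and 0.93.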

How the data were processed

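RNA of 48 samples was read on Illumina bead arrays, with 16 groups of 3 on 8 beadchips. Per the file headers, the deposited signals are bead intensity on a linear scale, with a detection p-value per probe. The authors' other values are normalized on the log2 scale, and the submitters' processing notes name BeadStudio and limma. The deposited log2 values were analysed. They differed by at most 0.03376 from the signals after neqc (offset 16), which subtracts background and quantile normalizes. Median intensity ran from 116.32 to 169.8 before this, and array medians from 4.833 to 4.837 after it. Quantile normalization sets all arrays to a common distribution, so a shift of all genes cannot be seen.

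Of 46255 signal lines, 18 repeated a probe. The platform annotation gave 34885 of 45281 normalized probes 1 symbol, 18 several and 10378 none, and 34807 matched a RefSeq entry, with 0 symbols changed. Kept were 16799 probes detected (p under 0.01) on 3 or more arrays, and the brightest was used per gene (10739 genes). A model of 16 group means was fitted with limma 3.58.1 (R 4.3.3, data.table version 1.17.8, jsonlite 2.0.0; 32 residual degrees of freedom), with Benjamini-Hochberg adjustment over all genes within each of 20 comparisons and a threshold of 0.05. KO against WT used the culture as a random effect (correlation 0.427). The model was tested on simulated data in which arrays were independent. That simulation held no culture effect, so it does not test the model under the correlation within cultures. With 3 arrays against 3, an exact permutation test of 1 gene cannot give a p under 0.1, so none was used, and the number of arrays limits the precision.

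Replicate numbers name thawed cultures in the labels (2 thaw days, replicates 1 and 2 on the first, against 3 occasions in the design text). Arrays of a genotype with the same number deviated together (mean r 0.659 over all genes, lowest 0.302, and 0.261 over the Zfp genes, lowest -0.114, across genes, which are not independent). The number was therefore taken as pairing them, and a fit with the culture as a block (28 residual degrees of freedom) is given where it changes a call. For KO against WT the block is the replicate number, with the culture still random. Alternatives were the neqc values, no background correction, median scaling, stricter and absent detection filters, the mean of all probes of a gene, the beadchip as a term, fits of the compared groups alone, and arrays or the third KO culture left out.

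The genes and lists were chosen with earlier results of these data known. Named in the text were the 12 largest passing rises and falls with mOSM in WT cells at 6 h, up to 6 passing genes per direction in other comparisons, measured genes of the role lists, genes at the edge of the detection rule, and up to 4 passing genes of other lists. Genes named for a call under the block alone, and the remaining falls with mOSM, were named after their values were seen. Promoters came from RefSeq (GRCm38.p6); the files name no build.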

Additional observations from a re-analysis of the deposited data

Results flagged for a closer look

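The effect of mOSM at 6 h differed between KO and WT cells for 9 Zfp genes by the interaction test (KO effect minus WT effect, log2). The values were -2.20 for Zfp593, 1.58 for Zfp521, 1.30 for Zfp101, 1.16 for Zfp41, -0.98 for Zfp281, -0.85 for Zfp213, 0.68 for Zfp362, -0.65 for Zfp131 and 0.57 for Zfp644. For 8 of them the WT effect carried most of the difference, while for Zfp213 the differences had opposite signs in the 2 genotypes. Of these calls only that of Zfp521 passed under every alternative.

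The effect of mOSM in WT cells differed between 6 h and 1 h for 15 Zfp genes, tested as the 6 h effect minus the 1 h effect. Positive values were 2.34 for Zfp593, 1.19 for Zfp52, 0.98 for Zfp35, 0.96 for Zfp263, 0.86 for Zfp777 and 0.72 for Zfp131. The fitted value of Zfp800 was 1.28, but its probe was above background on 0 of 3 controls at each time and on 1 of 3 mOSM arrays at 1 h, so this is no measured size. Negative values were -1.84 for Zfp97, -1.43 for Zfp521, -1.07 for Zfp58, -0.99 for Zfp532, -0.94 for Zfp703, -0.93 for Zfp292, -0.69 for Zfp212 and -0.55 for Zfp943. For Zfp97, Zfp58 and Zfp703 the effect at 1 h was the one that passed on its own. Second probes gave smaller values for Zfp58 (-0.34), Zfp703 (-0.35) and Zfp521 (-0.84), -0.67 and -0.90 for Zfp292, -1.10 for Zfp532, and -0.25, -0.73 and -0.78 for Zfp212. Of these 15 calls, that of Zfp263 was lost in 9 of 12 runs with an array left out, those of Zfp777 and Zfp292 in 8 and those of Zfp35 and Zfp703 in 7. Zfp58 also differed between the WT controls of 6 h and 1 h.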

How the results depend on the processing

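No named difference changed sign under any alternative. Of 69 named calls, all 69 passed with the neqc values and with the replicate block, 67 without background correction, 62 with the mean of all detected probes, 61 without a filter on dim probes, 51 with median scaling, 51 in fits of the compared groups only and 43 with the beadchip as a term. Of 66 named calls left by a minimum of 24 arrays, 66 passed, and 10 of 13 passed without the third KO culture. Leaving out 1 array at a time kept 428 of 576 calls. Low signal limits 9 of the 35 calls with mOSM in WT cells at 6 h, where 1 or both groups had no array above background.

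Counts of Zfp genes that moved by more than 1.5 times were as follows. The replicate block (pairing by culture) gave 59 with mOSM in WT cells at 6 h, 1 with mLIF at 6 h, 2 with hOSM and 6 with mLIF at 1 h, in KO cells 2 with hOSM and 1 with mLIF at 6 h and 3 with each at 1 h, 23 and 2 for the interaction at 6 h and 1 h, 57 for mOSM against the other ligands at 6 h, 30 for the change with time, 8 and 7 for WT and KO controls and 2 for KO against WT. In the same order, the shares of all genes with that block were 45.2%, 5.45%, 1.45% and 1.69% in WT cells. They were 6.99%, 7.89%, 1.14% and 1.15% in KO cells and 26.3% and 0.372% for the interaction. The remaining shares were 38%, 30.4%, 1.56%, 1.39% and 4.8%. Median scaling gave 1 for WT mLIF at 1 h, 0 for KO hOSM at 1 h, 4 for the interaction at 6 h, and 1 and 0 for WT and KO controls. No filter on dim probes gave 2 for WT mOSM and 1 for WT mLIF at 1 h and 3 for KO against WT, and the mean of all probes gave 2 and 1 for the first pair. The beadchip term gave 1 for each of WT mOSM and WT mLIF at 1 h, against 0.279% and 0.149% of all genes. It gave 1 for KO hOSM at 6 h and 0 at 1 h, against 0.549% and 0.186%. For the interaction at 6 h it gave 4, against 8.77%, and for the change with time 6, against 8.2%. For WT and KO controls it gave 1 each, against 0.223% and 0.242%. Fits of the compared groups only gave 0 for WT mOSM, 1 for WT mLIF, 0 for KO hOSM and 0 for KO mLIF at 1 h and 0 for KO controls. Without the third KO culture the counts were 0 for KO hOSM and KO mLIF at 1 h, against 0.475% of all genes in each. They were 14 and 1 for the interaction at 6 h and 1 h, against 13.8% and 0.279%. KO controls gave 1, against 0.363%, and KO against WT 15, against 7.25%. For median scaling, no filter, the mean of all probes and the compared groups only, no share of all genes is given. The cause of these moves was not tested.

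With 1 array left out the counts ran from 22 to 30 for WT mOSM at 6 h, against 23% and 23.1% of all genes in those 2 runs. For mOSM against the other ligands they ran from 23 to 37, against 15.3% and 21.8%. The change with time gave 8 to 21, against 9.84% and 13.7%. The interaction gave 4 to 9, against 7.48% without WT control 1 and 8.98% without KO mOSM 3. At 1 h the counts ran from 1 to 3 for WT mOSM (1 without mOSM array 3), 1 to 2 for WT mLIF, 1 to 1 for WT hOSM and 0 to 1 for KO hOSM and KO mLIF. Over those runs the share of all genes was 0.428% to 0.801% for WT mOSM, 0.298% to 0.512% for WT mLIF and 0.298% to 0.382% for WT hOSM. For KO hOSM it was 0.233% to 0.503% and for KO mLIF 0.261% to 0.466%. The counts ran from 1 to 2 for WT controls, against 0.223% to 0.279% of all genes. From 0 to 1 were counted for KO controls (0.168% to 0.251% of all genes), KO mLIF at 6 h (0.466% to 0.885%) and KO against WT (1.54% to 1.92%). The other 7 comparisons stayed at 0, where at most 0.931% of all genes passed.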
